A study of Mus musculus with 15 samples.

Results

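The genes described here are 95 of the 44788 gene symbols measured in mouse stomach, chosen by their level in the first week after birth. RNA of C57BL/6 mouse stomachs was sequenced at 15 ages, which run daily over the embryonic days E12.5 to E18.5, then through the postnatal days D1, D3 and D5 to the weeks W1, W2, W3, W6 and W8. All animals were of this strain and untreated as far as the labels say, and each timepoint has 1 transcriptome, so no timepoint has a replicate error. According to the methods, a sample held stomachs of several embryos up to E17.5 and the stomach of a single mouse later on. The paper also states that stomachs up to W2 were taken without regard to sex and that later ones came from males. Sex thus cannot be told apart from age in the weaned values. Levels are given in FPKM, a fragment count scaled to the transcript's length and to the sequencing depth of the sample. For each gene, the mean of log2(FPKM + 1) over D1, D3, D5 and W1 was compared with the larger of the mean over E12.5 to E16.5 (early fetal) and the mean over W3, W6 and W8 (weaned). Among the 12440 genes that reached 5 FPKM at some timepoint (the genes tested), the 100 with the largest difference were taken, and Cym, Pga5, Muc5b, Bpifb1 and Lyg1 were left out by name. The members were therefore selected on the suckling, early fetal and weaned values, and differences between those windows are described without a test. E17.5, E18.5 and W2 played no part in the choice.

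The mouse stomach has a squamous forestomach, which stores food, and a glandular part, which secretes acid, enzymes and mucus. The forestomach is lined by a stratified epithelium like that of skin. Its basal cells divide, its upper cells fill with keratin filaments, and in its surface layer proteins such as loricrin, the small proline-rich proteins and the late cornified envelope proteins are crosslinked under the cell membrane to form a tough envelope. Suckling pups live on fat-rich milk and change to solid food around weaning, and the liver, gut and stomach of the suckling animal carry enzymes that are lost afterwards.

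The working name of the list is suckling-restricted genes, and the single values of the weaned window went against it in many members. The paper places weaning itself in W3, so W3 stands at weaning and not clearly after it. Every suckling value lay above every weaned value in 33 of the 95 members, beside 53.6% of all genes tested, and nothing is read from this count because the rule used those values. In the other 62 members the value at W3 reached or exceeded the lowest suckling value, and 57 members were higher at W3 than at W1, beside 31.6% of all genes. W3 and W1 carried this overlap: without W3 the suckling values lay above the remaining weaned values in 93 members (65.4% of all genes), and without W1 they lay above all weaned values in 77 (58.3% of all genes). These counts, too, rest on values that the rule used. The median member read 119.3 FPKM at D1, 52.8 at D3, 37.1 at D5, 25.5 at W1, 37.2 at W2, 29.2 at W3, 11.6 at W6 and 0.302 at W8. The low weaned mean that brought most members onto the list therefore came from W8.

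Among the members, W8 stood apart from W3 and W6. The rule used these weaned values and favoured genes with a low weaned mean. The shares over all genes given beside the member counts are therefore no test. At W8, 69 members were below 1 FPKM, against 18 at W6 and 9 at W3, and 7.9% of all genes tested were below 1 FPKM at W8. W8 was below every other timepoint in 32 members, beside 21% of all genes. The log2 difference of W6 from W8 had a median of 2.86 over the members and of -0.10 over all genes tested. The squamous markers that are no members moved with this: Krt5, a keratin of basal squamous cells, read 84.6 FPKM at W3, 27.3 at W6 and 1.26 at W8, and Trp63, the transcription factor of squamous basal cells, read 2.16, 0.739 and 0.0511. The squamous list held 18 markers, of which 8 are members and 10 are not. Of these 10, 5 had their lowest value at W8 and 6 were below 1 FPKM there. They summed to 3296 FPKM at W3, 2468 at W6 and 1061 at W8, of which Sprr2a1 alone, a small proline-rich protein gene, gave 1011 at W8, and the other 9 summed to 524, 259.6 and 50.2. The 15 markers of glandular stomach epithelium summed to 224344 FPKM at W3, 322638 at W6 and 281565 at W8. Whether the W8 sample held forestomach was not tested, and in whole organs fewer cells of a type and less RNA per cell cannot be told apart.

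When the score was recalculated without W8, its median over the members was 1.53 in place of 2.66, and 24 of the 95 members stayed at or above the lowest score of the list, 2.09. Taking the list anew without W8 kept 47 of the 95 members. The members are described below in 2 sets: 47 genes placed in squamous groups, of which 3 stayed at or above 2.09 without W8, and 48 genes placed in other groups, of which 21 did. The groups were assigned by role after the values were seen. The second set also holds genes that act in squamous epithelium or skin, such as Asprv1, Alox12b and Aloxe3. The sets therefore do not divide squamous from non-squamous genes.

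**Figure D1:**
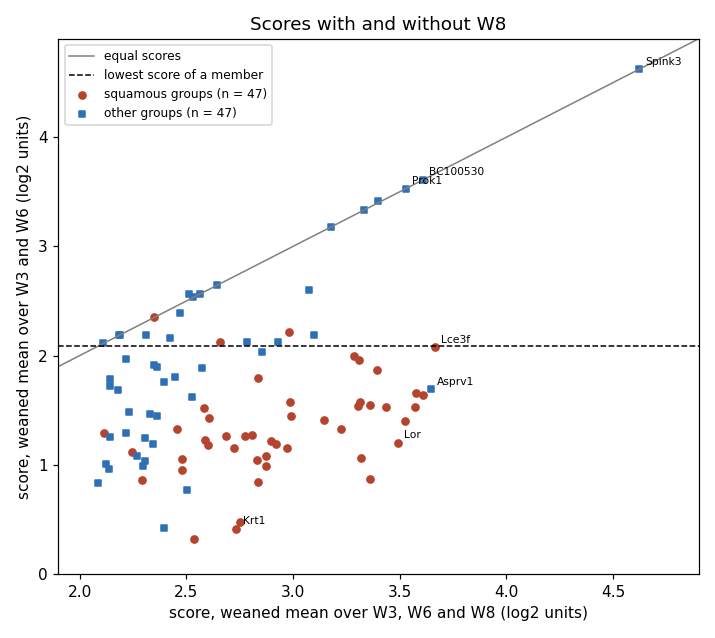
Score of 94 of the members with W3, W6 and W8 (horizontal axis) and with W3 and W6 only (vertical axis) in the weaned mean, both as differences of log2(FPKM + 1); each point is a gene, round for the 47 of squamous roles and square for 47 others. Genes on the grey line, such as Spink3 and Prok1, scored alike with and without W8, and 71 members lie under the dashed line at 2.09.

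Across the whole list, 65 members had their highest value at D1, 8 at E17.5, 7 at D3, 6 at W1, 5 at D5 and 4 at E18.5. The rule favoured high values at D1, D3, D5 and W1, so it favoured peaks there. No share of such peaks over all genes is given, here or for the groups below, and nothing is read from these counts. Together the members made up 0.0208% of the summed FPKM at E12.5, 1.48% at E16.5, 2.72% at E17.5 and 5.004% at D1. They made up 1.17% at W1, 1.70% at W2, 0.433% at W6 and 0.0167% at W8. Most members had left their early fetal level before birth. E17.5 lay above every value from E12.5 to E16.5 in 87 members, beside 24.6% of all genes. The rule used these early fetal values, so the choice of members favours this count. At E17.5, 70 members had passed the middle between their early fetal and suckling means on the log2 scale, and at E18.5, 89 had. These middles were set from means that the rule used, and among the 4285 genes tested whose suckling mean was above their early fetal mean, 61.8% had passed at E17.5 and 71.3% at E18.5. The 6 members that had not passed at E18.5 were Spink3, Afp, Muc13, Krt77, BC021614 and Rnu1b6. At the other end, W2 lay at or above the middle between the weaned and suckling means in 85 members, beside 85.3% of the 9874 genes whose suckling mean was above their weaned mean. It lay above every weaned value in 76 members, beside 68.3% of all genes, and the rule used the weaned values as well. W2 was above W1 in 70 members, beside 56.3% of all genes.

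**Figure D2:**
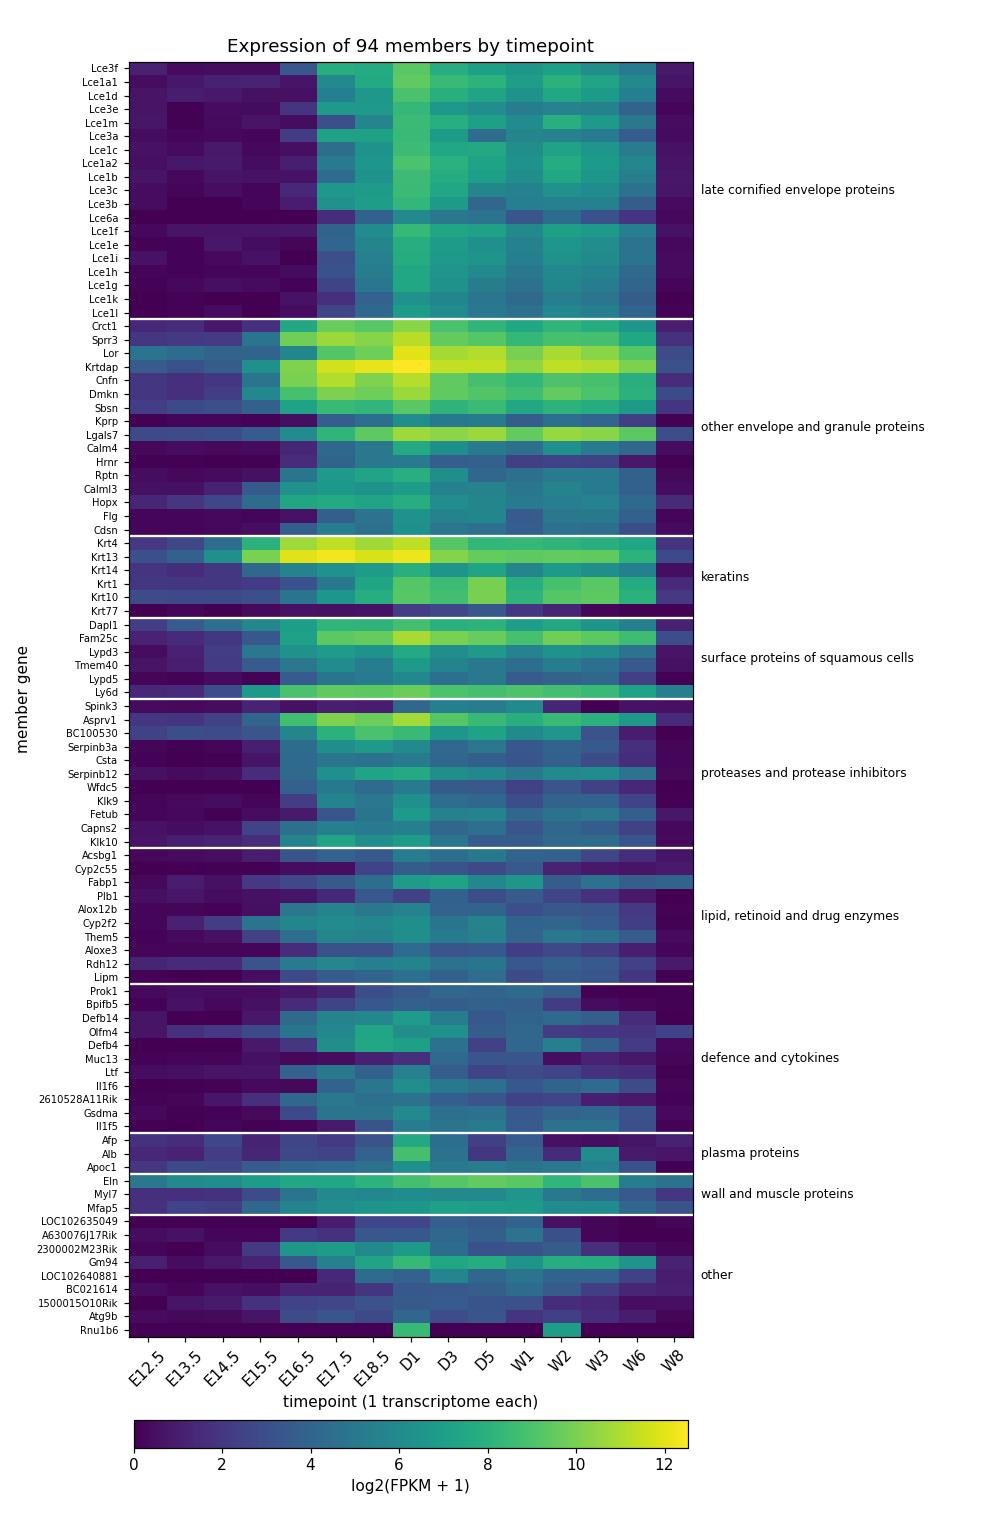
Level of 94 members (rows, ordered by role and then by score) at each of the 15 timepoints (columns), as log2(FPKM + 1). The band of high values of the squamous groups at the top begins at E16.5 or E17.5, is brightest at D1 for most genes, and continues to W6, while the column of W8 is dark in nearly all rows.

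The largest group was a run of late cornified envelope genes on chromosome 3. Lce proteins are small cysteine- and glycine-rich proteins that are added to the envelope late in its formation. The list held 19 of them, 13 of the Lce1 type, 5 of the Lce3 type and Lce6a, and all 19 had their highest value at D1. Their median read 0.519 FPKM at E16.5, 19.9 at E17.5, 82.9 at E18.5 and 336.6 at D1. It was then 119.0 at D3, 77.9 at D5, 45.2 at W1, 82.2 at W2, 68.1 at W3, 26.2 at W6 and 0.288 at W8.

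Lce3f, with the highest score of the group (3.66), read 1.24 FPKM or less from E12.5 to E15.5, 9.42 at E16.5, 226 at E17.5 and 208 at E18.5. It read 638 at D1, 226 at D3, 137 at D5 and 96.6 at W1, and 136 at W2, 71.1 at W3, 33.5 at W6 and 0.836 at W8. Lce1a1 had the highest level of the group at D1, 701 FPKM, and read 0.619 at E16.5, 63.7 at E17.5, 201 at E18.5, 355 at D3, 277 at D5, 130 at W1, 267 at W2, 159 at W3, 60.6 at W6 and 0.658 at W8. The 2 types differed in their course before birth. Lce3a was 3.68 FPKM at E16.5, 141 at E17.5 and 352 at D1. Lce1m, at the far end of the run, was 0.339, 7.20 and 369 at the same timepoints. At W2 their order was turned: Lce1m read 235 FPKM and Lce3a 46.4. All 13 Lce1 genes were higher at W2 than at both E17.5 and E18.5, and all 5 Lce3 genes were lower than at both. The Lce genes share sequence, which can move reads between them. Between 9.12% and 27.1% of the windows of 50 bases in the transcripts of 12 Lce1 genes, and between 12.1% and 48% in those of the Lce3 genes, occurred in the transcript of another gene.

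The genes on chromosome 3 lay close together. Of the 95 members, 31 (32.6%) were on this chromosome, which held 5.29% of all genes tested. A run of 21 members stood between positions 92604843 and 93019061 (GRCm38), each within 100 kb of the next: the 19 Lce genes, Kprp and Crct1. A run of 3, Flg, Hrnr and Rptn, stood between 93273546 and 93399442. Known as the epidermal differentiation complex, this region holds many genes of the upper squamous layers. In all, 16 runs of 2 or more members were found. They include Krt1, Krt77 and Krt4 on chromosome 15, Krt13 and Krt14 on chromosome 11, Sbsn, Dmkn and Krtdap on chromosome 7, Calml3 and Calm4 on chromosome 13, Serpinb12 and Serpinb3a on chromosome 1, Klk10 and Klk9 on chromosome 7, Aloxe3 and Alox12b on chromosome 11, Cdsn and 2300002M23Rik on chromosome 17, Defb14 and Defb4 on chromosome 8, Il1f6 and Il1f5 on chromosome 2, and Alb and Afp on chromosome 5.

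The group of other envelope and granule proteins held 16 members, and all 16 had their highest value at D1. Their median was 74.9 FPKM at E16.5, 247.7 at E17.5, 436.9 at D1, 106.6 at W1, 176.5 at W2, 131.8 at W3, 57.3 at W6 and 1.49 at W8. Krtdap, which encodes a secreted protein of differentiating keratinocytes, had the highest FPKM of all members: 1092 at E16.5, 3311 at E17.5, 4457 at E18.5 and 5922 at D1. It read 2659 at D3, 2623 at D5, 1404 at W1, 2596 at W2, 2173 at W3, 1053 at W6 and 7.52 at W8. W8 was the lowest of its 15 values, below E12.5, when it read 10.95.

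Lor, which encodes loricrin, the main protein of the cornified envelope, read 14.8 to 53.3 FPKM from E12.5 to E16.5. It read 576 at E17.5, 862 at E18.5, 4049 at D1, 1825 at D3, 2167 at D5, 1009 at W1, 1872 at W2, 1254 at W3, 604 at W6 and 6.49 at W8. The authors' confidence bounds at W8, which cover counting error only, were 5.62 and 7.35. W3 was thus above W1 for loricrin. Sprr3, a small proline-rich crosslinking protein of internal squamous linings, was earlier: 912 FPKM at E16.5, 1611 at E17.5, 2303 at D1, 324 at W1, 452 at W3 and 2.45 at W8. Cnfn (cornifelin), another envelope protein, read 1038 at E16.5, 2168 at E17.5 and 2274 at D1, and Crct1 190, 776 and 1264. The large granule proteins were lower. Flg, filaggrin, which bundles keratin filaments, read 0.553 FPKM at E16.5, 13.04 at E17.5, 26.4 at E18.5, 83.9 at D1, 11.3 at W1, 33.0 at W3 and 0.145 at W8. Its neighbour Hrnr (hornerin) read 1.97 at E16.5, 15.6 at E17.5, 31.9 at E18.5, 33.5 at D1 and 4.25 at W1, so that E18.5 was close to D1. Rptn (repetin) read 28.2, 109, 161, 234 and 23.6 at those timepoints. Calm4 and Calml3, calmodulin-like proteins of squamous cells, read 204 and 119 FPKM at D1. Dmkn and Sbsn, secreted proteins encoded beside Krtdap, read 1585 and 640 at D1 and 6.15 and 2.83 at W8. Among the others, Lgals7, galectin-7, was as high at D5 as at D1, with 1668 FPKM at D1, 1311 at D3, 1622 at D5, 740 at W1, 1555 at W2 and 1276 at W3. Kprp, Hopx and Cdsn read 69.9, 224 and 78.4 at D1, and Hopx was placed in this group without being an envelope or granule protein.

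**Figure D3:**
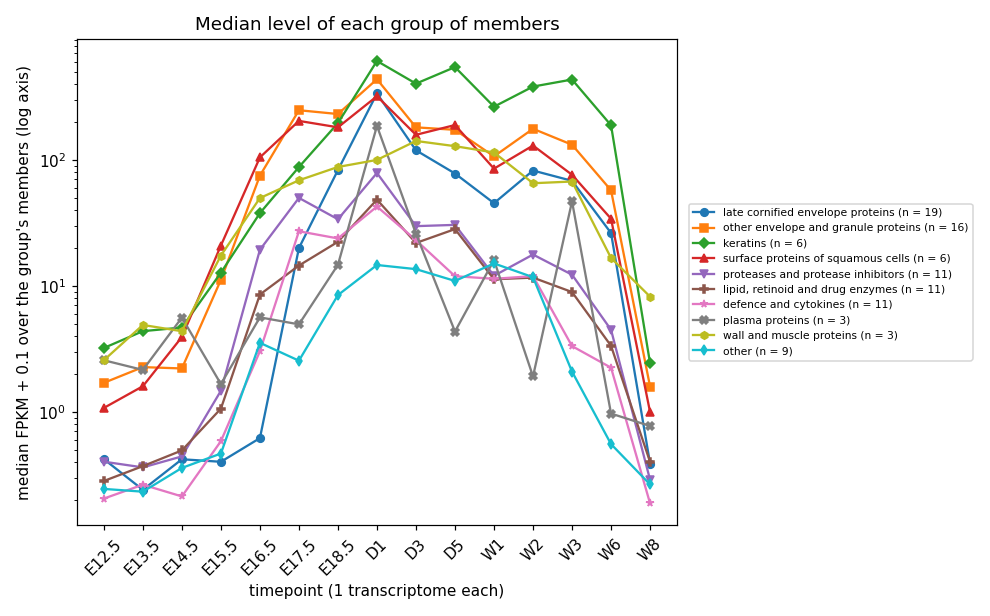
Median FPKM (with 0.1 added, log axis) of the members of each role at each timepoint; n is the number of genes behind a median, and no error is drawn because each timepoint has 1 transcriptome. The squamous groups stay above 26 FPKM from D1 to W6 and are at or under 2.33 at W8, whereas defence and cytokine genes and the group of other genes are already at 3.22 and 1.99 at W3.

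The 6 keratins divided into types. Krt4 and Krt13, the keratin pair of non-cornified squamous linings such as oesophagus, were high before birth. Krt13 read 7.47 FPKM at E12.5, 13.8 at E13.5, 76.8 at E14.5, 1016 at E15.5, 3976 at E16.5, 5133 at E17.5 and 3510 at E18.5. It read 4703 at D1, 1180 at D3, 771 at D5, 680 at W1, 730 at W2, 699 at W3, 273 at W6 and 5.96 at W8. Krt4 followed the same course, with 2595 at E17.5, 2560 at D1, 329 at W1, 286 at W2, 236 at W3, 168 at W6 and 2.74 at W8. Both were at their highest at E17.5, and D1 was the only suckling timepoint near that level. Krt1 and Krt10, the pair of cornified upper layers, came later. Krt1 read 8.04 FPKM at E16.5, 32.4 at E17.5, 166 at E18.5, 593 at D1, 380 at D3, 1000 at D5, 243 at W1, 477 at W2, 633 at W3, 208 at W6 and 1.92 at W8. Krt10 read 28.1, 96.0, 226, 626, 426, 988, 286, 608, 661, 268 and 3.17 at the same timepoints. For this pair W3 was above D1 and W1, and on the log2 scale their suckling mean was below W3 by 0.39 and 0.34 and above W6 by 1.21 and 0.97. Their scores without W8 were 0.41 and 0.32, the latter the lowest of the list. Krt14, the keratin of basal cells, read 79.3 FPKM at E17.5, 234 at D1, 51.3 at W1, 105 at W2, 74.1 at W3, 40.8 at W6 and 0.366 at W8. Krt77, a further type II keratin, had a different course: at most 0.528 FPKM up to E18.5, 3.90 at D1, 5.35 at D3, 9.44 at D5, 2.99 at W1, 1.46 at W2 and 0.15 or less from W3 on.

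The group named surface proteins of squamous cells held 6 members, all highest at D1. Its name is loose for Fam25c and Dapl1, whose place at the cell surface was not examined. Fam25c read 665 FPKM at E17.5, 1910 at D1, 468 at W1, 657 at W3, 404 at W6 and 7.14 at W8. Ly6d, a membrane-anchored protein of the Ly6 family, was the highest member at W8, with 839 FPKM at D1, 524 at W1, 343 at W3, 154 at W6 and 40.8 at W8. Dapl1 read 442 at D1, 124 at W1, 88.0 at W3 and 1.20 at W8. Lypd3, Lypd5 and Tmem40 read 198, 57.1 and 107 at D1 and 0.593, 0.0628 and 0.455 at W8.

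The start sites of several of these genes share a TATA box, the sequence at which the general transcription factors assemble. RefSeq (GRCm38.p6) gave the 250 bases before and 50 after the start of 71 members, 2 of them by an older symbol, and of 9497 genes tested, and the first start of each gene was used. Between 40 and 20 bases before the start, on the sense strand, TATAAA stood in 14 of the 71 members (19.7%) and in 1.73% of the 9497 genes. Over the whole window on either strand, where matches of different motifs may overlap, TATAAA was in 29.6% of the members and 7.71% of all genes. TGANTCA, the site of AP-1 factors, was in 16.9% and 4.98%, AGAACA in 26.8% and 11.9%, AGGTCA in 18.3% and 12%, AGATAA in 9.86% and 6.17%, TGTTTAC in 5.63% and 2.44%, and CCAAT in 31% and 38.7%. No test was run on these shares, since neighbouring members are copies of each other. The 100 bases before the start are printed for 10 of the 14 members, 8 of squamous epithelium and Fabp1 and Cyp2c55, because they show the shared element in genes of both courses. Each reads 5′ to 3′ up to the base before the start, on the strand of the gene. Capitals mark TATAAA and, in Lor, Krtdap and Rptn, also TGANTCA.
Sprr3 (chr3:92458721-92458820, minus strand): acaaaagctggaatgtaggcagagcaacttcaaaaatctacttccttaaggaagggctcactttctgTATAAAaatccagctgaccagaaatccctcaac
Lor (chr3:92083143-92083242, minus strand): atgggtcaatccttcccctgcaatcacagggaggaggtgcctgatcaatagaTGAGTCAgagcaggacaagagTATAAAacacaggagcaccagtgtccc
Krtdap (chr7:30787805-30787904, plus strand): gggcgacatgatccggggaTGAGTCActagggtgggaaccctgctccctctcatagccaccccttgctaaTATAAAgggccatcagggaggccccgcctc
Hrnr (chr3:93319649-93319748, plus strand): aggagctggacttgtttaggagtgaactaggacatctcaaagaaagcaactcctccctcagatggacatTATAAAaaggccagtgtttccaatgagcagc
Rptn (chr3:93393599-93393698, plus strand): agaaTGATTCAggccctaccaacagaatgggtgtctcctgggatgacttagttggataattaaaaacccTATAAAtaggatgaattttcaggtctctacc
Krt10 (chr11:99389365-99389464, minus strand): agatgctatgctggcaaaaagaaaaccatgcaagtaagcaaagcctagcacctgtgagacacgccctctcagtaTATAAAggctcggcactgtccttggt
Lce1d (chr3:92687211-92687310, minus strand): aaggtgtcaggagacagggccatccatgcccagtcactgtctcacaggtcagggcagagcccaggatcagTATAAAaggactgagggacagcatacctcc
Lce1m (chr3:93019062-93019161, minus strand): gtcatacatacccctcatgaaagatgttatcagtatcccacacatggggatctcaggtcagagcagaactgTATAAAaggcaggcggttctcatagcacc
Fabp1 (chr6:71199779-71199878, plus strand): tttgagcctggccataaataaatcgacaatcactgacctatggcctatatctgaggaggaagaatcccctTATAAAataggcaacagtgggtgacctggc
Cyp2c55 (chr19:39006919-39007018, plus strand): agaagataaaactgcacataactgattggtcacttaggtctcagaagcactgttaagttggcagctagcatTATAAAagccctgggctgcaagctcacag

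TATAAA began 33 bases before the start in Sprr3, 27 in Lor, 30 in Krtdap, 31 in Hrnr and Rptn, 26 in Krt10, 30 in Lce1d, 29 in Lce1m and Cyp2c55 and 30 in Fabp1. Among the 18 Lce members with a window, 2 held TATAAA at this place. Lce1d and Lce1m, which hold it, and Lce1a1, which does not, had D1 levels of 491, 369 and 701 FPKM.

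The other 48 members were more mixed. Spink3, Prok1, Bpifb5, A630076J17Rik and LOC102635049, singled out after their values were seen, were lower at E17.5 and earlier, higher from D1 to W1 and lower again at W3, W6 and W8 alike. Their scores without W8 lay between 3.18 and 4.62. Their highest values were at D3, D5 or W1 and not at D1. Of the 18 members with their highest value at D3, D5 or W1, 3 were keratins and the other 15 were in this second set.

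Spink3, a secreted inhibitor of trypsin, had the highest score of the list (4.62). It read 1.37 FPKM or less at all timepoints before birth, 16.48 at D1, 41.0 at D3, 38.3 at D5 and 63.1 at W1. At W2 it was at 1.48, and it was listed at 0 at W3 and read 0.506 at W6 and 0.498 at W8. Prok1, the secreted peptide prokineticin 1, read 1.43 FPKM at E17.5, 7.16 at E18.5, 10.2 at D1, 16.4 at D3, 16.0 at D5, 18.4 at W1 and 11.8 at W2. It was at 0.0446 or less at W3, W6 and W8.

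Some of these genes lay beside genes that the rule leaves out by name. Prok1 and A630076J17Rik overlap each other on chromosome 3 and stand 11062 and 8882 bases from Cym, the gene of the milk-clotting protease chymosin. LOC102635049 overlaps Muc5b, a mucin gene, on chromosome 7, and Bpifb5 stands 3399 bases from Bpifb1 on chromosome 2, in a family of secreted lipid-binding proteins. Whether reads were counted by strand is not given in the sources used here, so reads of overlapping genes cannot be told apart. A630076J17Rik read 9.68 FPKM at E18.5, 9.46 at D1, 17.4 at D3, 12.9 at D5, 26.6 at W1 and 7.34 at W2, and at most 0.13 later. LOC102635049 read 5.54, 5.29, 13.47, 10.8, 15.0 and 0.483 at those timepoints, and at most 0.148 later. Bpifb5 read 9.95, 13.2, 12.1, 13.7, 12.8 and 3.57, and at most 0.345 later. For the first 2 of these genes, E18.5 was slightly above D1. Cym itself read 117136 FPKM at W1 and 7718 at W3.

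**Figure D4:**
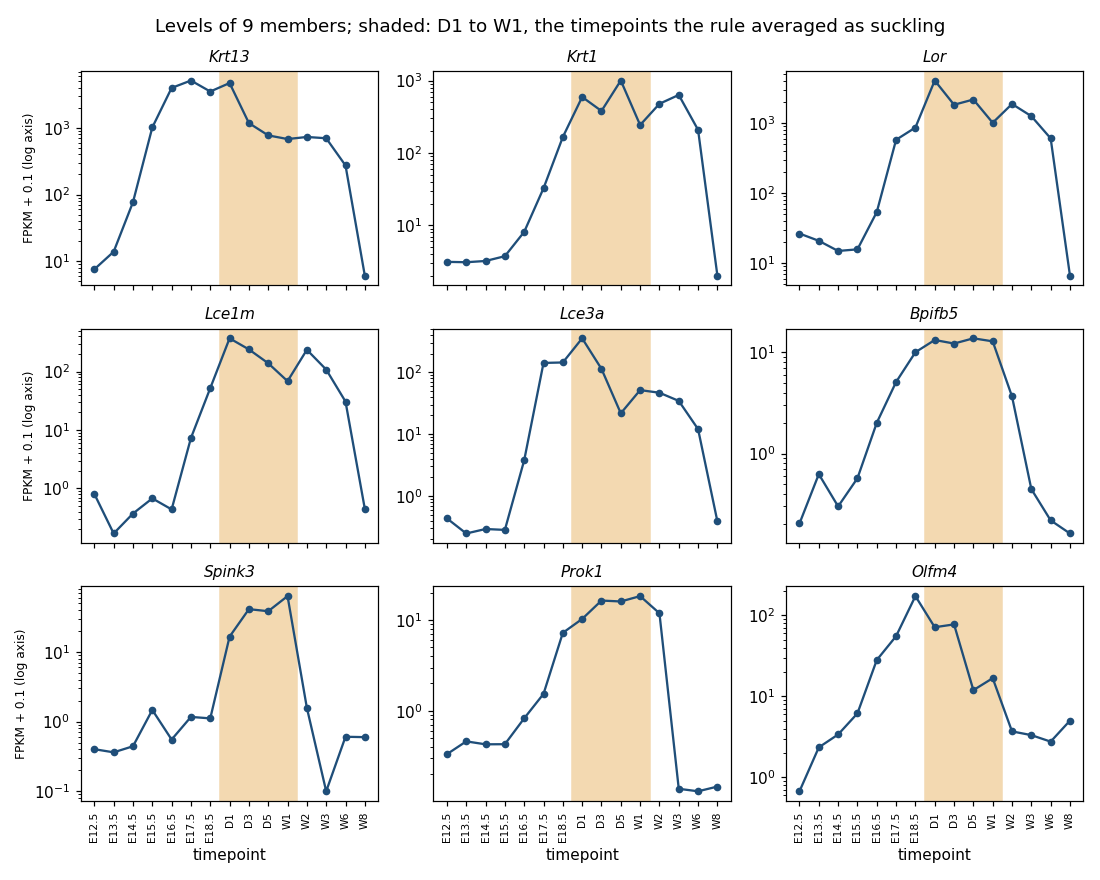
FPKM (with 0.1 added, log axis) of 9 members at the 15 timepoints, 1 transcriptome each; the shaded timepoints are those that the rule averaged as suckling. Krt13, Krt1, Lor, Lce1m and Lce3a stay at 11.9 FPKM or more from D1 to W6 and are at 6.49 or less at W8. Before W8, Lce3a falls from 352 FPKM at D1 to 11.9 at W6, and Krt13 from 4703 to 273. Bpifb5, Spink3 and Prok1 are low from W3 on, and Olfm4 is highest at E18.5.

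Proteases and their inhibitors were 11 members. Besides Spink3, the highest was Asprv1, a retroviral-type aspartic protease that processes filaggrin, with 1119 FPKM at E17.5, 1762 at D1, 234 at W1, 258 at W3, 108 at W6 and 1.87 at W8. BC100530, a stefin-type inhibitor gene, was highest at E18.5 (488 FPKM) and read 364 at D1, 62.3 at W1, 96.3 at W2, 8.10 at W3, 0.907 at W6 and 0 at W8, but 25.1% of its windows of 50 bases occur in related genes. Csta, cystatin A, read 36.1 at D1 and 6.20 at W3. The serpins Serpinb3a and Serpinb12 read 62.6 and 201 at D1 and 10.4 and 68.3 at W3. The kallikreins Klk9 and Klk10 read 78.6 and 118 at D1 and 14.51 and 20.2 at W3. Wfdc5, Fetub and Capns2 read between 34.5 and 104 at D1 and at most 0.775 at W8.

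Enzymes of lipids, retinoids and foreign compounds were 11 members. Fabp1, the fatty acid binding protein of liver and gut, read 10.5 FPKM at E17.5, 22.3 at E18.5, 119 at D1, 151 at D3, 55.7 at D5, 98.2 at W1, 11.5 at W2, 25.2 at W3, 13.1 at W6 and 15.3 at W8. W2 was below all 3 weaned values for this gene. It was the only member on the list of intestinal epithelium. Cyp2c55, a cytochrome P450, read 0.404 at E17.5, 12.1 at D1, 10.3 at W1, 1.41 at W2 and at most 0.866 later. Plb1, a phospholipase, was highest at D3 (13.2 FPKM). Acsbg1, which activates long fatty acids, read 38.3 at D1 and 5.14 at W3. The lipoxygenases Alox12b and Aloxe3, which act in turn on the lipids of the skin barrier, read 48.3 and 19.5 at D1, 8.83 and 3.74 at W3 and 0.082 and 0.132 at W8. Cyp2f2, Rdh12, Them5 and Lipm read between 22.6 and 74.4 at D1 and at most 0.846 at W8.

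The defence and cytokine group held 11 members. Olfm4, a secreted glycoprotein of gut crypts, read 55.1 FPKM at E17.5, 172 at E18.5, 71.1 at D1, 77.1 at D3, 11.8 at D5, 16.6 at W1, 3.60 at W2 and 2.66 to 4.92 later. Muc13, a mucin of the epithelial surface, was highest at D3, D5 and W1, with 18.4, 9.16 and 9.38 FPKM, against 2.24 at D1 and 0.399 at W2. The beta-defensins Defb14 and Defb4 read 120 and 140 at D1, 13.1 and 12.98 at W3. Ltf, lactoferrin, was the only member on the neutrophil list and read 32.6 at E17.5, 42.5 at D1, 6.29 at W1 and 2.60 at W3. The 13 neutrophil markers, Ltf among them, summed to 17.2, 46.9, 35.6 and 54.1 FPKM at E12.5, E13.5, E14.5 and E15.5, when Ltf was at 0.659 or less. They summed to 86.9 at E17.5, 159 at D1, 22.3 at W1 and 21.3 at W3, and 7 of them had their highest value at D1. The part of neutrophil RNA in the values of Ltf was not tested. The cytokine genes of the interleukin-1 family Il1f6 and Il1f5 read 73.2 and 37.0 at D1 and 19.7 and 25.0 at W3. 2610528A11Rik and Gsdma read 25.5 and 57.9 at D1.

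Plasma proteins gave 3 members, Alb, Afp and Apoc1. Alb, albumin, read 14.6 FPKM at E18.5, 461 at D1, 25.8 at D3, 3.08 at D5, 15.9 at W1, 1.81 at W2 and 65.4 at W3. Afp, alpha-fetoprotein, read 8.27 at E18.5, 186 at D1, 22.3 at D3 and 0.625 or less at W2, W3 and W6. Of the 14 liver markers, 13 were measured and 10 had their highest value at D1, Alb and Afp among them. Alb and Afp thus stood high in that library together with liver genes that are no members. The list summed to 265 FPKM at E18.5, 1719 at D1, 387 at D3, 1544 at W3, 2408 at W6 and 2235 at W8. Its sum was thus higher at W6 and W8 than at D1. No share of D1 peaks over all genes is given, and the part of liver RNA in the values of Alb and Afp was not tested. Apoc1 read 76.5 at D1 and 46.7 at W3. The wall and muscle members were Eln, elastin, with 452 FPKM at D1, 592 at D3, 725 at D5, 646 at W1, 307 at W2, 491 at W3, 37.0 at W6 and 24.2 at W8, its companion Mfap5, with 141 at D3, and Myl7, a myosin light chain of heart atria, with 92.5 at W1. The 9 milk protein genes of the mammary gland gave no member, and their summed level was at most 1.47 FPKM at any timepoint.

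The remaining 9 members included genes of little known role. Gm94 read 338 FPKM at D1, 89.6 at W1, 217 at W3, 87.6 at W6 and 1.297 at W8, the course of the squamous genes. 2300002M23Rik was highest at E17.5 (119 FPKM). LOC102640881 was highest at D3 (50.6 FPKM) and read 14.54 at D1. It lies within Plb1 on chromosome 5, which was also highest at D3, so the reads of these overlapping genes cannot be told apart. Atg9b read 16.7 at D1, and 1500015O10Rik was highest at D3. Rnu1b6, a copy of the U1 small nuclear RNA, was listed at 347 FPKM at D1, 124 at W2 and 0 at the other 13 timepoints. All of its windows of 50 bases occur in other U1 copies, so its reads cannot be placed. Rnu1b6 was also next to the limit of the list: the last 3 members were Ly6d, Rnu1b6 and Il1f5, with scores of 2.11, 2.11 and 2.09, and the first genes outside were Rnf39, Krt17 and Dkkl1, with 2.08, 2.08 and 2.07.

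W2, E17.5 and E18.5 were not used in choosing the members, and the difference between them, late suckling against just before birth, was tested with limma over the 12440 genes, with the timepoints of a window as its replicates, so that its error includes change over time within a window. W2 is a single library and adds no spread of its own, so it was assumed to vary like the timepoints of the other windows. The early fetal, suckling and weaned windows, which the rule used, gave part of that error. BC021614 was the only member that passed in the positive direction, and no member passed in the negative direction. Over all genes tested, 3.01% were higher and 5.21% lower at W2 at an adjusted p under 0.05. BC021614 read 1.31 FPKM at E17.5, 2.68 at E18.5 and 11.6 at W2, above both. It rose by 2.11 on the log2 scale (SE 0.53, limma adjusted p = 0.0314), and its suckling values were 9.81, 10.4, 12.9 and 20.4. Over the alternatives its limma adjusted p ranged from 0.0142 to 0.177, the latter without E17.5, when the difference was 1.78. At an unadjusted p under 0.05, 3 members were higher (BC021614, Prok1 and Rnu1b6) and 1 was lower (Olfm4), with limma adjusted p of 0.0769 for Prok1, 0.101 for Rnu1b6 and 0.0719 for Olfm4. Over all genes tested, 8.26% were higher and 20.6% lower at that unadjusted p.

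In value, W2 was above both E17.5 and E18.5 in 32 members, beside 26.5% of all genes, and below both in 51, beside 58.8%. The median difference was -0.41 on the log2 scale over the members and -0.21 over all genes tested. The SE was wide for the squamous members, whose values also varied within the early fetal and the weaned windows. The rule used those windows, so the choice of members also shaped this SE. A squamous member that did not pass was not thereby shown to be alike at W2 and before birth. No squamous member passed the test, and their differences went both ways. The median was 2.01 over the 13 Lce1 genes (1.23 to 3.50) and -1.14 over the 5 Lce3 genes (-1.59 to -0.45). Krt1 had 2.68 (SE 2.18) and Krt10 2.04 (SE 2.09), against -2.87 (SE 3.15) for Krt4 and -2.54 (SE 3.27) for Krt13. Of the 16 members grouped as other envelope and granule proteins 5 were positive and 11 negative, between -2.14 and 1.78, with Lor at 1.41 and Sprr3 at -1.56. The highest 5 were Rnu1b6 (6.96), Lce1m (3.50), Krt1, Il1f5 (2.58) and Lce1k (2.54), and the lowest 5 Olfm4 (-4.42), Krt4, 2300002M23Rik (-2.77), Krt13 and Serpinb3a (-2.45). None of these 10 passed the test at an adjusted p under 0.05.

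**Figure D5:**
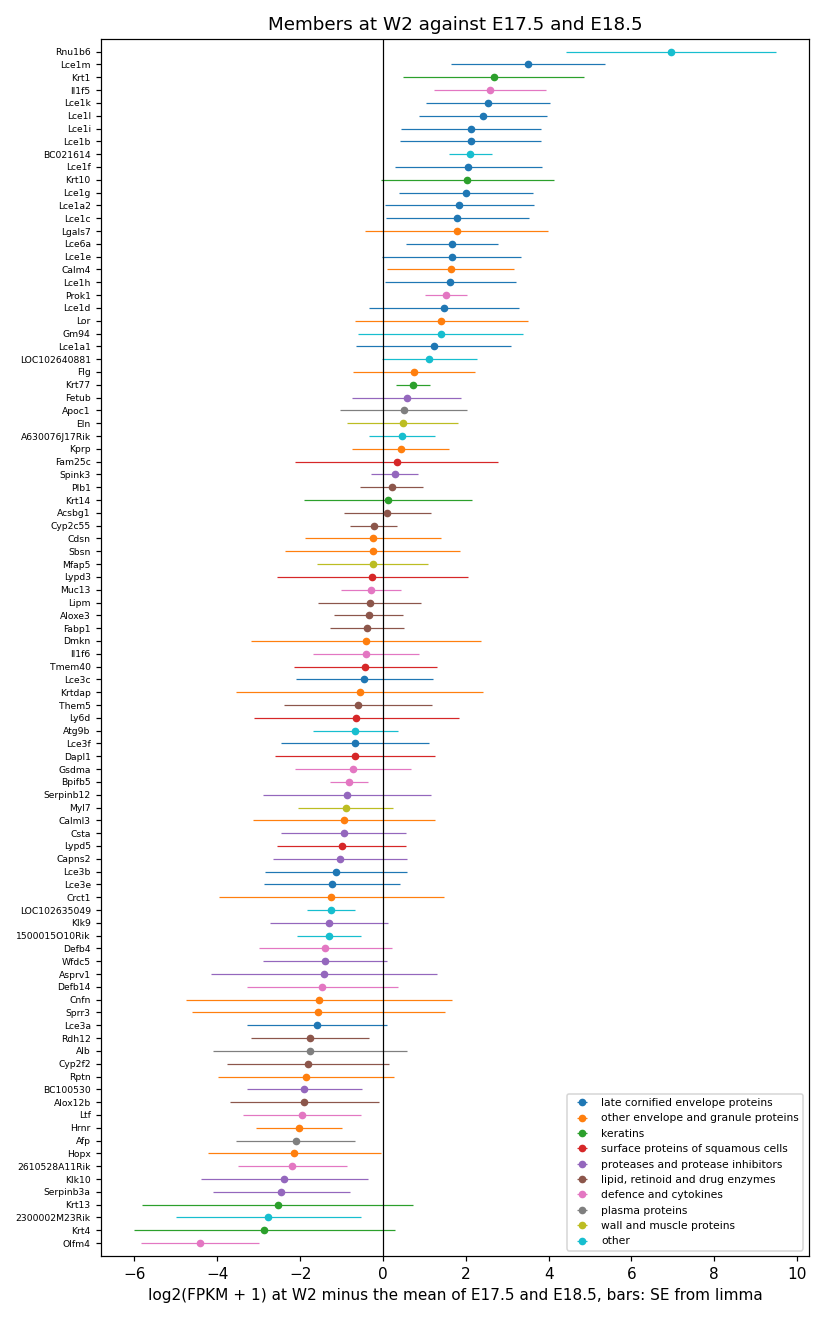
Difference of log2(FPKM + 1) at W2 from the mean of E17.5 and E18.5 for 94 members, with the SE from limma as bars and the role as colour. The Lce1 genes, Krt1 and Krt10 lie to the right and the Lce3 genes, Krt4 and Krt13 to the left, with bars as wide as the differences, and BC021614 has the only difference that passed at an adjusted p under 0.05.

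The lists of genes of other cell types and pathways gave the setting of this contrast. Of the 18 squamous markers, 8 of them members, 0 passed in either direction (limma), 3 were lower at an unadjusted p under 0.05, and the median difference was -1.09. Of the 15 glandular epithelium markers, 6 were higher and 0 lower, with a median of 2.86. In the fat oxidation list 7 of 23 were higher and 0 lower, with a median of 0.64. In the list of cholesterol and fatty acid synthesis 0 of 20 were higher and 9 lower, and of the 15 digestive enzymes tested 7 were higher. In the secreted mucosal defence list, with Bpifb5 and Ltf as members, 0 of 13 passed in either direction and 3 were lower at an unadjusted p under 0.05, with a median of -0.83.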

How the data were processed

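RNA was measured in 1 stomach sample at each of 15 timepoints, grouped by the age in the labels. The deposited tables hold FPKM made by the authors for each gene entry, and its confidence bounds. Their methods name HISAT2, StringTie and GENCODE, the submitters' processing notes name Bowtie 0.12.2 and FastQC, both name GRCm38.p2, and the table layout is that of Cufflinks, so the exact pipeline is unsettled. The methods also name liver as the RNA source where all labels name stomach. Read depth is not given in the sources used here, so bounds are the authors' and cover counting error only. Summed FPKM ranged from 745591 at E14.5 to 1344970 at W6, which moves all levels between early and late samples.

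FPKM of the 1565 symbols with more than 1 entry was summed, and log2(FPKM + 1) was analysed in Python 3.11.15 with NumPy 2.4.6, pandas 2.3.3 and matplotlib 3.10.9. A fold change on this scale understates that of low genes. W2 was compared with E17.5 and E18.5 by limma 3.58.1 in R 4.3.3 (5 windows as groups, all 15 samples, Benjamini-Hochberg adjustment over 12440 genes, threshold 0.05). The fit was tested on simulated data with 200 shifted genes. The members, lists and tests were chosen with earlier results of these data known. Named are the 30 members with the highest scores, the 5 highest and 5 lowest differences of W2, the members on a list, those within 100 kb of another member and those at the limit of the list; other members were named after their values were seen. Alternatives were another pseudocount, scaling, filter, entry, prior variance, threshold or window, and each timepoint left out. Positions are from the files (GRCm38, counted from 1). The protein features planned for the members were not analysed here, and 1 member, which the counts include, is not reported or drawn by itself.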

Additional observations from a re-analysis of the deposited data

How the results depend on the processing

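The members were held fixed in all alternatives but the reruns of the rule. The count of members higher at W2 (1) was 0 with a pseudocount of 0.1, 0 without a filter and 0 at an adjusted p under 0.01, and between 0 (without E17.5) and 2 (without E16.5, E18.5 or D1) when a timepoint was left out; it was 1 in the other alternatives, but with E17.5, E18.5 and W2 alone in the fit that 1 was Rnu1b6 and not BC021614 (limma adjusted p = 0.0217 and 0.0782). The count of members lower at W2 (0) ranged from 0 to 1, the latter without E16.5, when Olfm4 passed, and was 0 otherwise. Rerunning the rule kept 59 of the 95 members with medians in place of means, 47 without W8 and up to 92 without another timepoint, and at least 75 in the remaining alternatives. The count of 33 members above every weaned value was 93 without W3, 77 without W1 and otherwise 27 to 36 (alternatives chosen after seeing the data). The count at E18.5 moved little (88 to 91). The count at W2 (85) was 73 without W8 and otherwise 82 to 86. Of 275 alternatives for the differences of 11 single genes, 0 changed direction, 5 ended the call of BC021614 and 3 made Olfm4 or Rnu1b6 pass. Over all genes tested, 36.7% of the calls at W2 were higher, but 54.1% with median-ratio scaling, 48.3% with quantile normalization and 56.7% with a fixed sum, while W2 stayed above E17.5 and E18.5 in 32 to 34 members. The median of all genes, -0.21, was -0.02 with median-ratio scaling. The cause of these shifts was not tested. No paired analysis was possible because each timepoint has 1 sample. Without replicates, differences between single timepoints have no error.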
